A study of Rattus norvegicus with 83 samples.

Results

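Neuronal and progenitor genes were followed across the 10 groups of a rat study of thyroid peroxidase inhibitors. The 10 genes, of 17483 symbols in the count table, were Nes, Ncam1, Calb2, Fscn1, Uchl1, Stmn2, Gap43, Tubb3, Prph and Elavl4, listed by name as markers of neural-crest-derived progenitors and neurons. They were chosen by name with earlier results of these data known, and which measured values the choice drew on is not recorded. Fscn1 and Calb2 were among the genes known to be lower in PD16 amitrole 50 mg/kg than in PD16 vehicle, and this comparison is taken here as the one behind the choice. Differences of the 10 genes that use the libraries of either group are therefore given as values with intervals, as a description with no p-value.

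RNA came from offspring of Crl:CD(SD) Sprague-Dawley rat dams and was read out with BRB-seq, a bulk method in which each sample is barcoded at the 3′ end of its messenger RNA and then pooled. The dams received corn oil (vehicle), methimazole (MMI) or amitrole (Ami, 3-amino-1H-1,2,4-triazole) once a day by oral gavage. Methimazole and amitrole block thyroid peroxidase, on which thyroid hormone synthesis depends. Dosing began on gestational day 7 (GD7) and ended on pup day 22 (PD22) per the treatment protocol, with birth expected on GD23, which was called PD1. The groups labelled PD16 held 10 libraries of vehicle, 10 of MMI at 8 mg/kg body weight per day (MMI8), 10 of MMI at 16 mg/kg (MMI16), 11 of Ami at 25 mg/kg (Ami25) and 12 of Ami at 50 mg/kg (Ami50). The groups labelled GD21 held 6 libraries at each of the same doses. The labels name neither litters nor animals, and p-values therefore cover only the spread between these libraries, which may be partly technical.

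Peripheral neurons and the chromaffin cells of the adrenal medulla both arise from the neural crest, partly by way of Schwann cell precursors. Growing neurons build their axons from neuron-enriched tubulin and intermediate filaments, and regulate them with growth-cone proteins such as GAP-43 and stathmin family members. Nestin is an intermediate filament of neural progenitors that is also made by other young and proliferating cells. Fascin bundles actin filaments in cell protrusions of neurons, endothelial cells and dendritic cells, so several of these genes are not restricted to neurons.

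The labels gave the tissue as testis, and the data went against it. In all 83 libraries, 12 testis genes without Inha, which the adrenal also expresses, had 138 of 57573311 counts. The 12 adrenal cortex genes summed to 13357 to 76028 CPM (a gene's count over its library's total, on the same scale in every library) and the 18 chromaffin genes to 860 to 2463 CPM. The embryonic globins Hbe1, Hbz and Hbg1 took 9.38 to 24.1% of globin counts in each library labelled PD16 vehicle, MMI8 or MMI16, and at most 0.938% in each library of the other 7 groups. The stage labels may therefore not hold for all groups, which was not tested. Between these 3 groups and the rest, effects of stage or treatment and this difference cannot be told apart, and every library of the 3 groups carries it, so no value without such libraries could be had. Albumin transcripts of liver reached 200 CPM in 15 libraries, and Eif2s3y, on the Y chromosome, was below 10 CPM in 8 libraries of PD16 Ami50. Total counts were 202270 to 1627114 per library, and at the median of 492083 for PD16, 1 count was worth 2.03 CPM.

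Promoter sequences were available for 6 of the 10 genes, from RefSeq on build GRCr8, which is not the build used for the counts. The 250 bases before the start are shown for Fscn1, the gene whose groups were farthest apart, and for Uchl1 and Tubb3, which varied together from library to library. They are written 5′ to 3′ along the gene. Capitals mark the motif TATAAA, the motif GGGCGG or the motif TCAGCAC on either strand, and Fscn1 lies at chr12:16723735-16723984, minus strand, Uchl1 at chr14:41849418-41849667, minus strand and Tubb3 at chr19:68365437-68365686, plus strand.
Fscn1: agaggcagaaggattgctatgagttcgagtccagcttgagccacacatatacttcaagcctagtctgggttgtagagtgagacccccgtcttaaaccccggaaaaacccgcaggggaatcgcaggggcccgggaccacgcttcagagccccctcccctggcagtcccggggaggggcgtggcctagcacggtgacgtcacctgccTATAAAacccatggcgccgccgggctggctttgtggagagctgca
Uchl1: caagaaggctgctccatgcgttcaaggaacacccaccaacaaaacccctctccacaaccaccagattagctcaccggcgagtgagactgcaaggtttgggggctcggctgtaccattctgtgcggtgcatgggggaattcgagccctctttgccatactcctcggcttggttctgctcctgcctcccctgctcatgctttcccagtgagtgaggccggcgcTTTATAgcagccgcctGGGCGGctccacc
Tubb3: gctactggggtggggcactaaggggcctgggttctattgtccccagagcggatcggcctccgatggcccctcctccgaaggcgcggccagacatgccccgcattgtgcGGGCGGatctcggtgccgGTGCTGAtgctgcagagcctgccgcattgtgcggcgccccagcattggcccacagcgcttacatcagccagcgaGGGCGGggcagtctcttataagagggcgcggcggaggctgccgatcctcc

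The window of Fscn1 held TATAAA, the letters of a TATA box, at position -45 from the start, and that of Uchl1 held it at -29 on the opposite strand. Among 27457 promoters, 13.1% held these letters within the same 250 bases. GGGCGG, the core of a GC box, was present for Uchl1 and Tubb3 but not for Fscn1, against 32.4% of promoters. TCAGCAC, the left part of the element bound by REST, a repressor of neuronal genes, stood at -124 in Tubb3 on the opposite strand, against 3.88% of promoters. Nes, Prph and Elavl4 also had a window, of which Nes and Prph held GGGCGG, Prph held TATAAA and Elavl4 held TCAGCAC. The right part, GGACAGC, was found in none of the 6 windows and in 5.34% of promoters. Ncam1, Calb2, Stmn2 and Gap43 had no entry. The motifs do not overlap each other in these windows, and a match is a description of letters only.

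**Figure D1:**
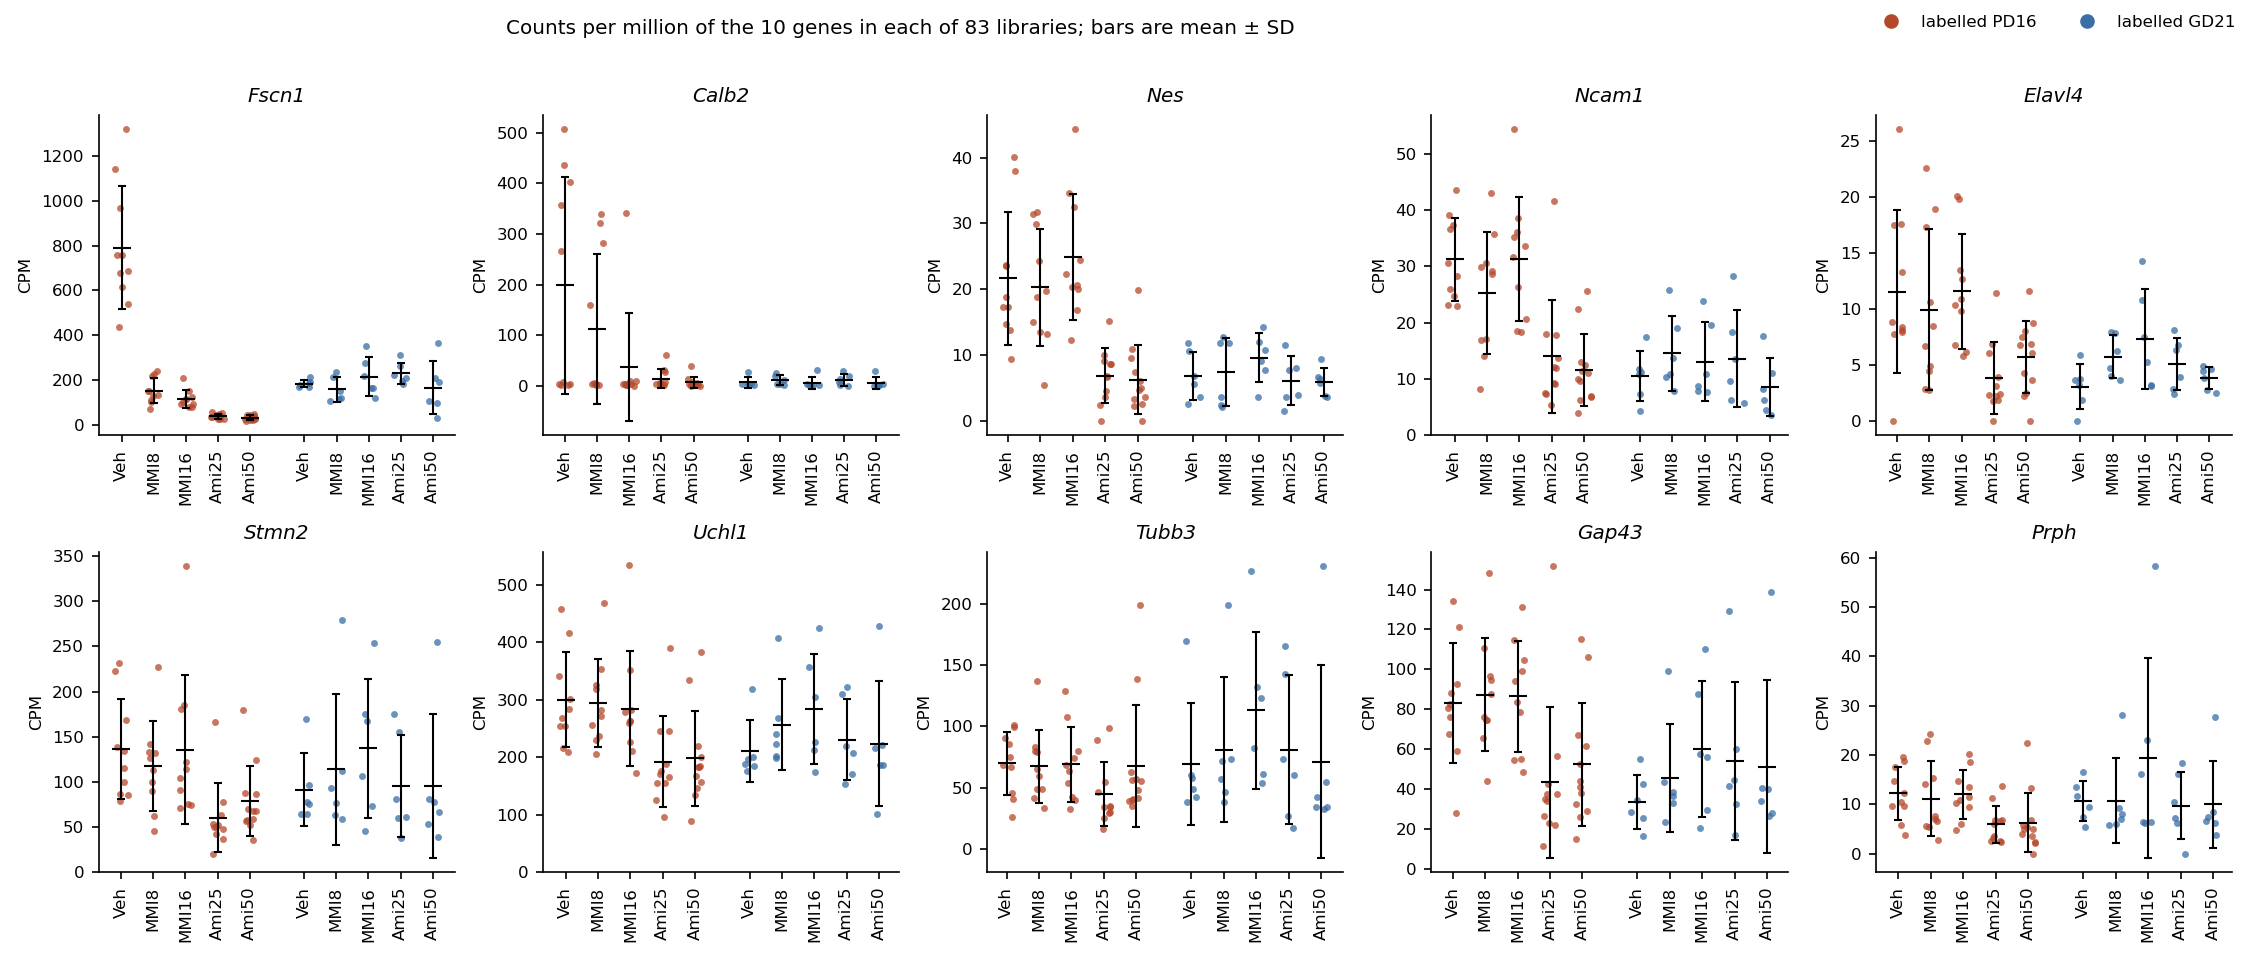
Levels in CPM (linear axes that differ between panels) of the 10 genes in each of 83 libraries, with libraries labelled PD16 on the left and GD21 on the right of each panel, and bars at the mean ± SD of each group. Fscn1 in PD16 vehicle lies above every other group (437 to 1320.1 CPM), Calb2 splits in the PD16 vehicle and methimazole groups, and the other genes overlap between neighbouring groups.

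Fscn1 showed the widest separation of groups. In libraries labelled PD16 the lowest, median and highest CPM were 437, 723 and 1320.1 in vehicle, 70.0, 141 and 239.7 in MMI8, and 77.1, 108 and 208 in MMI16. Both amitrole groups lay lower again, at 24.4, 34.8 and 56.8 CPM in Ami25 and 17.4, 27.5 and 47.8 CPM in Ami50. No treated group overlapped vehicle, and the share of all tested genes that were lower than vehicle without overlap was 3.06% in MMI8, 3.83% in MMI16, 8.74% in Ami25 and 8.76% in Ami50. Ami25 did not overlap MMI8 or MMI16, as for 6.32% and 3.53% of genes lower in Ami25, and Ami50 did not overlap MMI16, as for 3.02% of genes lower in Ami50. Fscn1 was known to be lower in PD16 Ami50 than in PD16 vehicle, so nothing is read from gaps that involve either group.

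At GD21 the group means of Fscn1 were 183 ± 17.0 CPM in vehicle, 157 ± 54.7 in MMI8, 215 ± 86.6 in MMI16, 229 ± 47.6 in Ami25 and 166 ± 117 in Ami50 (SD, n = 6 each), and all of these groups overlapped. In the order of means, PD16 vehicle stood apart from the next group, GD21 Ami25. From GD21 Ami25 down to PD16 MMI16, each group overlapped its neighbour, and a second gap lay between PD16 MMI16 and PD16 Ami25.

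Of the 10 genes, 8 passed the filter on low counts at PD16, and Prph and Elavl4 did not. Fscn1 was lower at both methimazole doses than in vehicle at PD16. It averaged 152 ± 57.1 CPM in MMI8 libraries and 791 ± 275 CPM in vehicle libraries (SD, n = 10 in both), a log2 fold change of -2.42 ± 0.18 (SE) from edgeR, with a 95% interval of -2.77 to -2.06, or 5.34-fold lower. It averaged 115 ± 39.0 CPM in MMI16 (n = 10), 7.33-fold below vehicle, at a log2 fold change of -2.87 ± 0.18 with an interval of -3.24 to -2.51. All 10 MMI8 and all 10 MMI16 libraries lay below the vehicle mean. Fscn1 was the 1 gene of the 8 past edgeR's threshold (adjusted p of 0.05 over all genes) at each dose, where 6.75% of the 4906 genes tested were lower in MMI8 and 7.07% in MMI16. The vehicle libraries are among those with earlier results known, so nothing is read from this count.

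Fewer expressing cells and less RNA per cell cannot be told apart in these bulk samples. The summed level of 10 endothelial genes, all of them with counts in every group, was also lower at both methimazole doses at PD16. It averaged 736 CPM (608 to 884) in vehicle, 414 CPM (351 to 517) in MMI8 and 399 CPM (313 to 519) in MMI16. For 10 proliferation genes the sum was 4491 CPM (2555 to 6892) in vehicle, 2561 CPM (2284 to 3073) in MMI8 and 2164 CPM (1548 to 2726) in MMI16. Of the 8 endothelial genes tested, Pecam1 (-1.93 and -1.96) and Kdr (-1.38 and -1.83) were lower in MMI8 and MMI16 than in vehicle, as were Mcm4 (-1.68 and -2.03) and Rrm2 (-1.33 and -1.99) of the 10 proliferation genes, all log2 fold changes called by edgeR and named after their values were seen. The other members of both lists were not called: the median over the 8 endothelial genes was -0.13 in MMI8 and -0.18 in MMI16, with 3 of 8 above 0 at each dose. Over the 10 proliferation genes it was -0.05 in MMI8, with 4 above 0, and 0.03 in MMI16, with 7 above 0, and the falls of both sums lay in the called genes. Changes of sums were not particular to these lists. In vehicle, MMI8 and MMI16, 12 leukocyte genes summed to 259, 183 and 190 CPM and the 12 adrenal cortex genes to 23292, 29385 and 26953 CPM. The part of any of these lists in the fall of Fscn1 was not tested. In library numbers up to 56, Fscn1 averaged 156 CPM in MMI8 (n = 6) and 668 CPM in vehicle (n = 6), with a log2 fold change of -2.15. In numbers 57 and above it averaged 146 CPM in MMI8 (n = 4) and 975 CPM in vehicle (n = 4), at -2.77. For MMI16 against vehicle the values were -2.56 and -3.55 in the same number series. Fscn1 was thus lower than vehicle within both series at both doses.

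The difference of Fscn1 between methimazole and vehicle was larger in libraries labelled PD16 than in those labelled GD21. At GD21 its log2 fold change was -0.19 (95% interval -0.88 to 0.49) for MMI8 and 0.20 (-0.48 to 0.89) for MMI16 against vehicle. The PD16 change minus the GD21 change was -2.17 ± 0.34 (SE, 95% interval -2.85 to -1.49) for MMI8 and -3.06 ± 0.35 (-3.75 to -2.37) for MMI16, given without a p-value since it uses the PD16 vehicle libraries. Of 6287 genes in the fit of both stages, 3.74% and 4.52% were called lower in the same contrasts. Fscn1 was the 1 gene of the 10 past the threshold in each, from which nothing is read, and the difference by stage coincides with the globin difference described above. Between the methimazole doses at PD16, Fscn1 in MMI16 was at a log2 fold change of -0.46 over MMI8 (95% interval -0.83 to -0.08), with an edgeR adjusted p of 0.264.

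**Figure D2:**
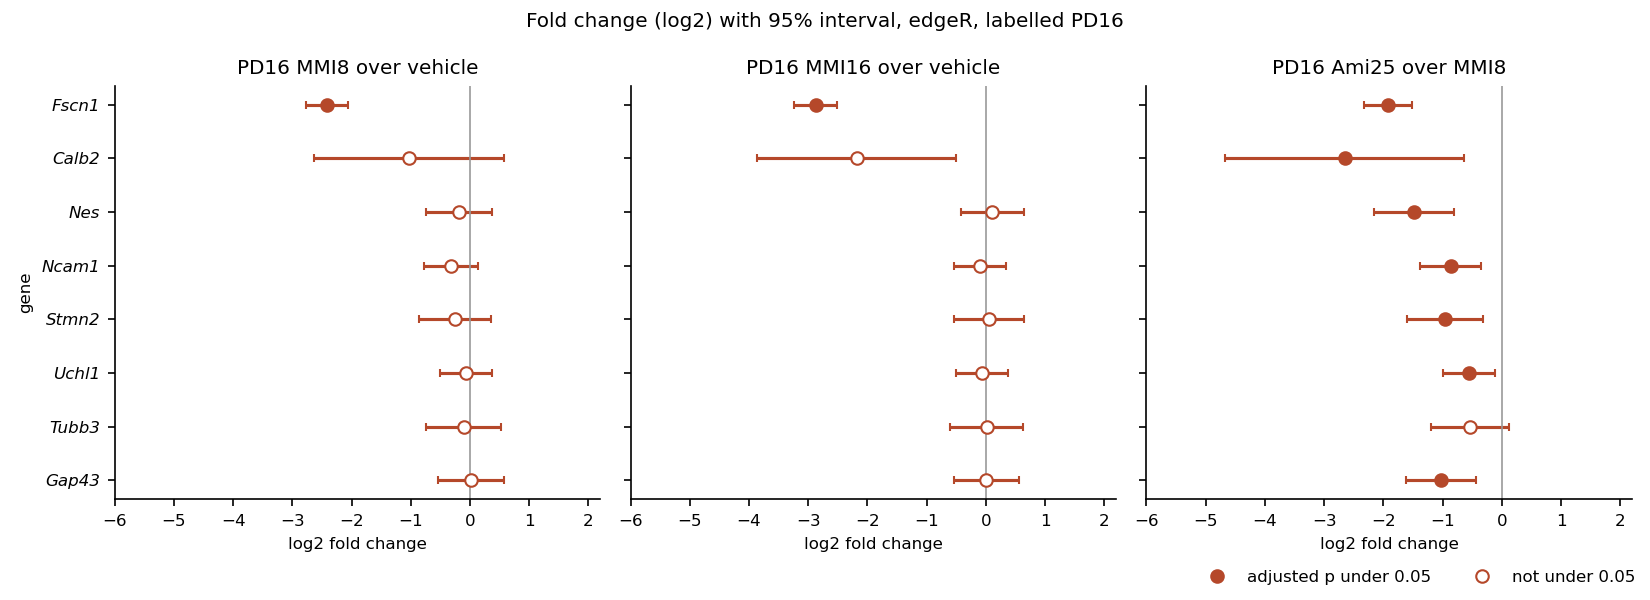
Log2 fold changes from edgeR with 95% intervals for the 8 genes tested at PD16, in MMI8 over vehicle, MMI16 over vehicle and Ami25 over MMI8; filled points passed an adjusted p of 0.05 over all genes. Fscn1 lies at -2.42 and -2.87 for methimazole over vehicle, where the points are a description, and all but Tubb3 are filled for Ami25 over MMI8.

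The genes with the pattern most like that of Fscn1 over all 83 libraries were Marcks (Spearman rho 0.89), Septin7 (0.87) and Prrc2c (0.87), as a description over libraries that share groups and depth. Marcks, which encodes a membrane protein that binds actin, averaged 2588 ± 521 CPM in vehicle, 715 ± 233 CPM in MMI8 and 379 ± 120.4 CPM in MMI16 at PD16 (SD, n = 10 each). In the deviations from group means, where treatment and stage play no part, the highest correlation of Fscn1 with any of 6286 other genes was 0.48, with Ywhah.

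Calb2, the gene of the calcium-binding protein calretinin, was high in some libraries and near the counting limit in others of the same group. The lowest, median and highest CPM at PD16 were 2.44, 137 and 507 in vehicle, 2.43, 5.07 and 339 in MMI8, 0, 4.47 and 341 in MMI16, 1.81, 6.16 and 61.7 in Ami25, and 0, 4.24 and 39.2 in Ami50. Above 100 CPM lay 5 of 10 libraries of vehicle, 4 of 10 of MMI8 and 1 of 10 of MMI16, at 159.8 to 507 CPM. The other 20 libraries of these 3 groups lay at or below 10.8 CPM, with nothing in between, and no library of the other 7 groups passed 61.7 CPM. These high values rest on 56 to 425 counts each, well above single counts.

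The means of Calb2 under methimazole and vehicle at PD16 are a description, with no p-value. Its mean was 113 ± 148 CPM in MMI8 and 199 ± 214 CPM in vehicle (SD, n = 10 each), at a log2 fold change of -1.03 with a 95% interval of -2.63 to 0.57. In MMI16 it was 38.4 ± 106 CPM (SD, n = 10), at -2.18 against vehicle (95% interval -3.86 to -0.50). With the library number series as a term in the model, the MMI16 value was -2.82. The direction differed between the library number series, a difference that was not tested itself. In numbers up to 56, the high libraries numbered 4 of 6 for vehicle, 1 of 6 for MMI8 and 0 of 8 for MMI16, and the log2 fold changes over vehicle were -3.38 for MMI8 and -5.68 for MMI16. In numbers 57 and above they were 1 of 4 for vehicle, 3 of 4 for MMI8 and 1 of 2 for MMI16, and the log2 fold changes were 1.03 for MMI8 and 0.72 for MMI16.

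Calb2 did not follow the other neuronal genes from library to library. Its within-group correlations with the other 9 genes were 0.01 to 0.17, and the highest with any of 6286 genes was 0.45, with Commd7. Over all libraries its most alike genes reached a Spearman rho of at most 0.39 (Klhl22). At GD21, Calb2 averaged 6.86 to 12.6 CPM in the 5 groups, with single libraries of up to 31.3 CPM.

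Nes and Ncam1 shared a pattern of means, higher in the PD16 groups with embryonic globins than in the other 7 groups. The pattern is not particular to them, since the same PD16 groups had the highest means of Calb2, Gap43, Elavl4 and, by a small margin, Uchl1. Nes, of neural progenitors, had lowest, median and highest CPM of 9.43, 18.1 and 40.1 in vehicle, 5.44, 19.3 and 31.7 in MMI8, 12.2, 21.5 and 44.3 in MMI16, 0, 6.85 and 15.2 in Ami25 and 0, 4.79 and 19.9 in Ami50 at PD16. Its GD21 means were 5.89 to 9.56 CPM. The libraries of neighbouring groups overlapped throughout, and a library held at most 40 counts of the gene.

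Ncam1, of the neural cell adhesion molecule, had 22.9, 29.4 and 43.6 CPM (lowest, median and highest) in vehicle, 8.16, 28.8 and 43.1 in MMI8, and 18.3, 32.7 and 54.4 in MMI16 at PD16. The same values were 5.44, 12.0 and 41.7 CPM in Ami25 and 4.03, 10.5 and 25.6 CPM in Ami50. Its GD21 means were 8.54 to 14.6 CPM. Map1b, of a microtubule-associated protein of axons, was the gene most like Ncam1 (Spearman rho 0.74 over 83 libraries), and it was also the most alike within groups (r = 0.53). Hmgn1, of a nucleosome-binding protein, was most like Nes (rho 0.74), and within groups their correlation was 0.46.

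For methimazole against vehicle at PD16, the 95% intervals of the log2 fold change against vehicle were -0.75 to 0.37 (MMI8) and -0.42 to 0.64 (MMI16) for Nes, and -0.77 to 0.14 (MMI8) and -0.54 to 0.34 (MMI16) for Ncam1. Between labelled stages, Nes was higher at PD16 than at GD21 in MMI8 (log2 fold change 1.31 ± 0.36 SE) and in MMI16 (1.16 ± 0.34). No GD21 library held more than 14.3 CPM of Nes, which passed the filter through PD16 vehicle and methimazole libraries, where it is high. Its stage values are therefore a description. Ncam1 was higher at PD16 in MMI16 (1.13 ± 0.30, edgeR adjusted p = 0.00127), and in MMI8 it was at 0.68 with an adjusted p of 0.0519. When the model had a term for the number series, Ncam1 in MMI8 was at 0.69 with an edgeR adjusted p of 0.0499.

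Across these stage comparisons, 2 of the 10 genes were higher and 0 lower in MMI8 at PD16, Nes and Calb2, where 25.6% of 6287 genes were higher and 22.4% lower. Calb2 there was at a log2 fold change of 2.87 ± 1.01 (SE, edgeR adjusted p = 0.015). In MMI16, 2 were higher, Nes and Ncam1, and 1 lower, Fscn1 (-1.07 ± 0.24 SE, edgeR adjusted p = 0.000201), where 24.5% of genes were higher and 21.2% lower. The members' shares were near or below those of all genes, and the calls of Nes are a description because of how it passed the filter. In Ami25, whose libraries of both stages had little embryonic globin, Fscn1 alone was called, lower at PD16 with no overlap of libraries (-2.72 ± 0.26 SE, edgeR adjusted p = 9.09e-15), against 6.57% of genes lower and 2.91% lower without overlap.

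The 6 genes of neurons and their axons had similar mean levels in vehicle and methimazole libraries at PD16. Stmn2 (a stathmin of growth cones), Gap43 (a growth-cone membrane protein), Tubb3 (a neuronal tubulin), Uchl1 (a ubiquitin hydrolase abundant in neurons and neuroendocrine cells), Prph (peripherin, an intermediate filament of peripheral neurons) and Elavl4 (a neuronal RNA-binding protein) overlapped between vehicle and both methimazole doses at PD16. Their reads may be shared with close relatives such as other tubulin, stathmin and ELAV genes, since the counting of such reads is not given in the sources used here.

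Uchl1 averaged 300.3 ± 82.2 CPM in vehicle, 295 ± 76.2 in MMI8, 285 ± 99.9 in MMI16 (SD, n = 10 each), 193 ± 79.2 in Ami25 (n = 11) and 199 ± 82.6 in Ami50 (n = 12) at PD16. Stmn2 averaged 136 ± 55.4, 117 ± 50.0, 136 ± 82.3, 59.8 ± 38.2 and 78.3 ± 39.0 CPM in the same groups in the same order. Gap43 averaged 83.0 ± 30.1, 87.3 ± 28.2, 86.5 ± 27.7, 43.4 ± 37.8 and 52.3 ± 31.0 CPM. The 3 genes had similar means in vehicle and methimazole and were lower on average in both amitrole groups, with overlapping libraries.

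Tubb3 averaged 69.9 ± 25.6 CPM in vehicle, 67.6 ± 29.8 in MMI8, 69.2 ± 30.6 in MMI16, 44.7 ± 26.4 in Ami25 and 67.8 ± 49.8 in Ami50 at PD16. Prph averaged 12.3 ± 5.36, 11.2 ± 7.59, 12.0 ± 4.91, 5.97 ± 3.75 and 6.31 ± 6.03 CPM, and Elavl4 11.5 ± 7.26, 9.91 ± 7.18, 11.6 ± 5.13, 3.79 ± 3.19 and 5.67 ± 3.24 CPM in the same order. Prph and Elavl4 rested on at most 24 and 15 counts in a PD16 library. Tubb3 was the gene of the 10 whose Ami50 mean lay nearest to that of vehicle. That mean includes 199 and 139 CPM in libraries 19 and 85, which had liver transcripts. The Ami50 median of Tubb3 was 51.6 CPM, and its mean without libraries with liver transcripts was 46.5 CPM (n = 9).

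For Uchl1, Stmn2, Gap43 and Tubb3, the log2 fold changes at PD16 were between -0.26 and 0.05 for MMI8 and MMI16 over vehicle, and their 95% intervals spanned -0.86 to 0.64 taken over both doses. At GD21 no gene of the 9 tested (Elavl4 did not pass the filter) was called in any of 8 comparisons, and 0 had an unadjusted edgeR p under 0.05. DESeq2 called 0 as well. The share of all 6236 genes called by edgeR was 0% in each. Over all genes, an unadjusted p under 0.05 was found for 2.55% (MMI8), 3.22% (MMI16), 8.79% (Ami25) and 6.56% (Ami50) against vehicle. It was found for 6.03% in MMI16 against MMI8, 3.14% in Ami50 against Ami25, 8.85% in Ami25 against MMI8 and 6.93% in Ami50 against MMI16. The log2 fold changes of the 9 genes lay between -1.04 and 0.85, and the lowest adjusted p was 0.62, for Fscn1 in Ami25 over MMI8 (0.52, 95% interval -0.17 to 1.21).

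Across the 5 GD21 groups the means were 211 to 284 CPM for Uchl1, 91.2 to 137 CPM for Stmn2, 33.6 to 60.2 CPM for Gap43, 69.4 to 113 CPM for Tubb3, 9.74 to 19.4 CPM for Prph and 3.04 to 7.33 CPM for Elavl4. The 5 groups overlapped for each of the 6 genes. The highest Prph mean, of MMI16, includes 58.2 CPM in library 47, and the median of that group was 11.3 CPM.

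The difference between the compounds at PD16 was tested with Ami25 against MMI8, which uses no library of PD16 Ami50 or PD16 vehicle. Since it is not recorded which comparison the choice of genes drew on, its independence of that choice is assumed. Calb2 averaged 14.7 ± 18.7 CPM in Ami25 (SD, n = 11) and 113 ± 148 CPM in MMI8 (n = 10), at a log2 fold change of -2.65 ± 1.00 (SE). Its median was 6.16 CPM in Ami25 and 5.07 CPM in MMI8, so the lower mean rests on the 4 MMI8 libraries above 100 CPM. When the model had a term for the library number series, the value was -2.20 and no longer called. Fscn1 was 3.80-fold lower in Ami25 at -1.93 ± 0.20 (edgeR adjusted p = 1.13e-11), with no overlap, where 6.32% of genes were lower without overlap. Nes was 2.81-fold lower, at -1.49 ± 0.34, and below the MMI8 mean in 11 of 11 Ami25 libraries. Calb2, Nes and Ncam1 passed the filter at PD16 through vehicle and methimazole libraries, where they are high. Their values in this comparison are therefore a description.

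Gap43 had 11.4, 34.8 and 152 CPM (lowest, median and highest) in Ami25 and 44.0, 81.8 and 148 CPM in MMI8. Stmn2 had 20.1, 50.3 and 167 CPM in Ami25 and 45.7, 119.5 and 227 CPM in MMI8, and Uchl1 had 95.5, 172 and 390.3 CPM in Ami25 and 205, 277 and 468 CPM in MMI8. Library 79 was the highest Ami25 library for all 3 genes, and the groups overlapped for each. Gap43 (-1.02 ± 0.29 SE, edgeR adjusted p = 0.00325), Stmn2 (-0.96 ± 0.32, adjusted p = 0.0114), Ncam1 (-0.86 ± 0.26, a description) and Uchl1 (-0.55 ± 0.22, adjusted p = 0.0338) were lower by smaller factors, each in 10 of 11 Ami25 libraries against the MMI8 mean. Tubb3 was at -0.54 (95% interval -1.20 to 0.11) with an edgeR adjusted p of 0.166. With Calb2 counted, 7 of the 8 genes tested were lower in Ami25, in a comparison where 24.0% of 4906 genes were lower and 24.3% higher. Their median log2 fold change was -0.99, against 0.02 for all genes. Passing the filter through the group where a gene is high makes a difference more likely, so the count is a description. With no filter on low counts, Calb2 (edgeR adjusted p = 0.0574) and Uchl1 (adjusted p = 0.0844) were no longer called. With only the Ami25 and MMI8 libraries in the fit, 5 of the genes passed the filter and 4 of these were called.

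Within library numbers up to 56, with 8 Ami25 and 6 MMI8 libraries, Fscn1 (-1.97), Stmn2 (-0.94) and Gap43 (-0.92) passed edgeR's threshold. Uchl1 (-0.53), Calb2 (-1.12) and Tubb3 (-0.13) did not, and Nes was at -1.65 and Ncam1 at -0.79, as a description. Within numbers 57 and above, with 3 and 4 libraries, all 8 had the same sign and only Fscn1 (-1.85, adjusted p = 0.00336) passed. Other measures moved with this comparison. Embryonic globins took 0.19 ± 0.0732% of globin counts in Ami25 and 17.9 ± 2.93% in MMI8, the adrenal cortex sum was 50918 CPM (19024 to 66591) in Ami25 and 29385 CPM (22973 to 35744) in MMI8, and the proliferation sum was 991 CPM (704 to 1199.9) and 2561 CPM (2284 to 3073) in the same groups. The part of these differences in the neuronal genes was not tested.

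Most tested genes of a longer neuronal list were also lower, while the tested chromaffin genes were mixed, with 4 of 9 called higher and 2 of the 9 below 0. Of 38 further neuronal genes in the table, 14 were tested, and in Ami25 against MMI8 11 were lower and 1 higher, with a median log2 fold change of -0.83, where 24.0% of all genes were lower and 24.3% higher. Nefm, a neurofilament (-2.06 ± 0.32 SE), Gng3, a neuronal G protein subunit (-1.37 ± 0.27), Tubb2b (-1.26 ± 0.29, edgeR adjusted p = 0.000293) and Tuba1a (-1.14 ± 0.15, adjusted p = 8.49e-09), both tubulins of growing neurons, had the largest falls. Nefm and Gng3 averaged 9.19 and 17.2 CPM in Ami25 and 40.0 and 46.3 CPM in MMI8. They may have passed the filter on low counts through vehicle and methimazole libraries, where they are high. Their values and the count of lower genes in this list are therefore a description. Nrcam, a cell adhesion molecule named as the 1 exception after its value was seen, rose by 1.02 ± 0.26 (edgeR adjusted p = 0.000853).

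Of 18 chromaffin genes, 9 were tested, and 4 were higher and 0 lower in Ami25 than in MMI8, beside the same 24.3% higher and 24.0% lower of all genes. These were Pnmt, the enzyme that makes adrenaline (1.48 ± 0.18 SE, edgeR adjusted p = 2.10e-09), Chga, a granule protein (0.95 ± 0.36, adjusted p = 0.0237), and, of the catecholamine enzymes, Ddc (0.51 ± 0.15, adjusted p = 0.00321) and Th (0.45 ± 0.19, adjusted p = 0.0411). The median over the 9 was 0.21, with 7 above 0 and 2 below 0. Of the same list, Dbh averaged 179 ± 98.3 CPM in Ami25 and 253 ± 69.7 CPM in MMI8 (SD). Chgb averaged 180 ± 104 CPM in Ami25 and 229 ± 66.7 CPM in MMI8. Only 2 of the 17 Schwann cell genes were tested, and Cnp, a myelin-associated enzyme, was higher (0.74 ± 0.24 SE, edgeR adjusted p = 0.00861). Of 8 genes of bridge cells, an intermediate between precursors and chromaffin cells described in mouse, only Sox4 was tested, at -0.50 (edgeR adjusted p = 0.13).

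**Figure D3:**
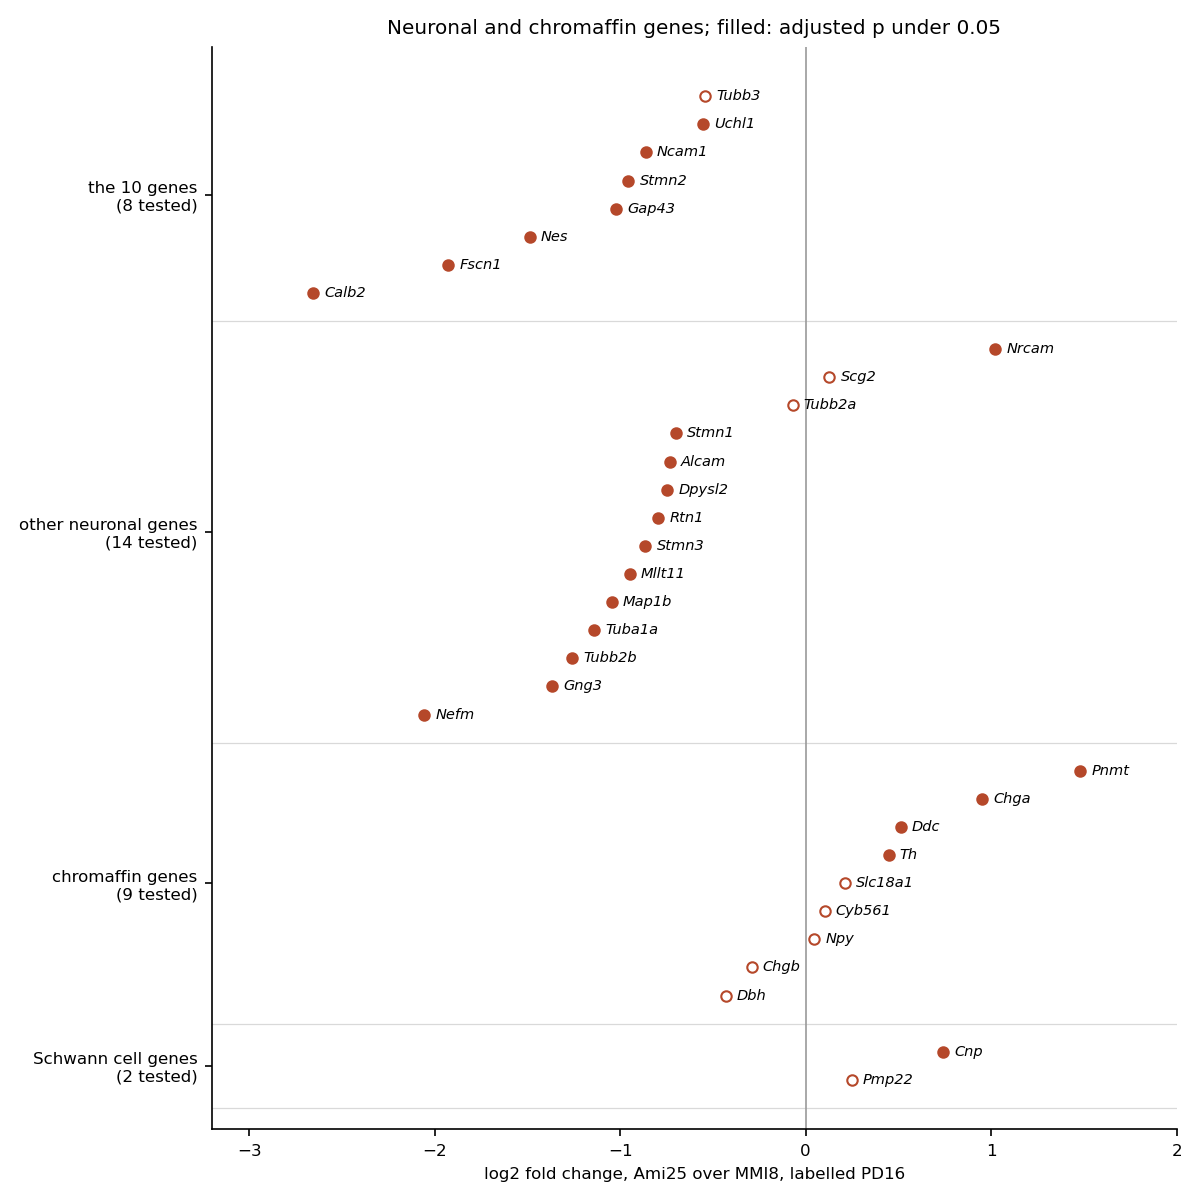
Log2 fold change of Ami25 over MMI8 at PD16 for the tested genes of 4 lists, 1 row per gene; filled points passed an adjusted p of 0.05 over all genes by edgeR. The neuronal genes lie mostly left of 0 (11 of 14 lower in the longer list, as a description). The 4 called chromaffin genes lie right of it, and 2 of the 9 chromaffin genes lie left of it.

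Under methimazole the share of the same lists called at PD16 was near that of all genes, of which 6.75% were lower in MMI8 and 7.07% in MMI16. Dpysl2, which regulates axon growth, was the 1 of 14 further neuronal genes called, lower in MMI8 (-0.77 ± 0.18 SE, edgeR adjusted p = 0.00124) and in MMI16 (-0.77 ± 0.18, adjusted p = 0.00092) than in vehicle. Of 9 chromaffin genes, none was called for MMI8 and Ddc was lower in MMI16 (-0.46 ± 0.15 SE, edgeR adjusted p = 0.0435). The Schwann cell and bridge cell genes tested (2 and 1) did not pass. The list medians were -0.01 for MMI8 and -0.02 for MMI16 over the 14 neuronal genes, and 0.01 for both doses over the 9 chromaffin genes.

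Between doses of 1 compound at PD16, none of the 8 genes was called. For MMI16 against MMI8, edgeR called 1.96% of all genes, and 1 of the 8, Fscn1, had an unadjusted p under 0.05, as did 11.8% of all genes. For Ami50 against Ami25, edgeR called 0% of all genes, and 4.22% had an unadjusted p under 0.05. For the 8 genes this pair is a description, and Tubb3 was at a log2 fold change of 0.70 (95% interval 0.08 to 1.32). Without libraries with liver transcripts, the Tubb3 means were close, at 46.5 CPM in Ami50 (n = 9) and 43.7 CPM in Ami25 (n = 10). DESeq2 called 0 of the 8 in both. In the amitrole pair the intervals were wide for Calb2 (-3.33 to 1.89) and narrower for Uchl1 (-0.30 to 0.56) and Fscn1 (-0.68 to 0.22).

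Amitrole against vehicle at PD16 is given without a test, since results of Ami50 against vehicle were known when the genes were chosen. The log2 fold changes of Ami25 and Ami50 over vehicle were -4.34 and -4.57 for Fscn1, -3.69 and -4.41 for Calb2, -1.68 and -1.67 for Nes, and -1.18 and -1.36 for Ncam1. They were -1.21 and -0.70 for Stmn2, -1.003 and -0.61 for Gap43, -0.63 and -0.50 for Uchl1, and -0.65 and 0.05 for Tubb3. The Ami50 values include the libraries with liver transcripts, which raised the Tubb3 mean as given above. Both comparisons share the vehicle libraries. Of all genes, 26.9% were lower in Ami25 and 26.0% in Ami50 than in vehicle. For Ami50 over MMI16 the values were -1.70 for Fscn1, -2.22 for Calb2, -1.78 for Nes and -1.26 for Ncam1, and 24.8% of genes were lower.

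Likewise without a test, vehicle libraries labelled PD16 were above those labelled GD21 by log2 fold changes of 4.68 for Calb2, 1.99 for Fscn1, 1.78 for Elavl4, 1.59 for Nes, 1.44 for Ncam1 and 1.20 for Gap43. The changes were 0.50 for Stmn2, 0.42 for Uchl1, 0.10 for Prph and -0.06 for Tubb3. Libraries did not overlap for Fscn1 and Ncam1, as for 11.0% of all genes higher at PD16. Embryonic globin shares differed between these groups as given above. For Ami50, PD16 over GD21 was -2.48 for Fscn1 and between -0.59 and 0.61 for the other 9 genes.

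The genes fell into different patterns of variation among libraries of 1 group. Correlations of log2 CPM were computed on deviations from group means over 83 libraries for all 45 pairs of the 10 genes, with 100000 permutations within groups and Benjamini-Hochberg adjustment over the pairs. By Pearson's r 25 pairs had an adjusted permutation p under 0.05, by Spearman's rho 16, and 15 by both. The highest was Stmn2 with Uchl1, at r = 0.89 (adjusted permutation p = 4.09e-05) and rho = 0.82 (adjusted permutation p = 7.5e-05), and the raw p of 1e-05 is the smallest that these permutations can give. Without the 2 libraries farthest from the median it was 0.87.

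Stmn2, Uchl1, Tubb3 and Gap43, grouped after their values were seen, had r of 0.63 to 0.89 in their 6 pairs. The range was 0.74 to 0.95 within GD21, 0.58 to 0.86 within PD16, 0.52 to 0.87 in library numbers up to 56 and 0.75 to 0.91 in numbers 57 and above. Without the 15 libraries with liver transcripts it was 0.55 to 0.83. Prph had r of 0.62 with Stmn2, 0.60 with Tubb3, 0.57 with Uchl1 and 0.45 with Gap43. With Gap43 its Spearman rho was 0.13 (adjusted permutation p = 0.503). These r of Prph were 0.79 to 0.87 within GD21 and 0.19 to 0.46 within PD16. Over both stages without the libraries with liver transcripts, Prph had r of 0.48 with Stmn2, 0.46 with Tubb3, 0.46 with Uchl1 and 0.35 with Gap43. Nes and Calb2 had r of at most 0.24 and 0.17 with any other of the 10, and no pair of theirs had an adjusted permutation p under 0.05. Fscn1 had r of at most 0.36, with an adjusted Pearson permutation p under 0.05 for Tubb3, Gap43, Stmn2 and Prph. By Spearman's rho none of these pairs passed (adjusted permutation p of 0.0976 to 0.439), and Fscn1 with Elavl4 did (rho 0.33, adjusted permutation p = 0.0257). Within GD21 the r of Fscn1 was 0.60 with Gap43, 0.58 with Stmn2 and 0.52 with Tubb3, and within PD16 it was 0.12, 0.11 and 0.21 with the same genes. Without the libraries with liver transcripts these r were 0.17, 0.17 and 0.18.

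Of genes outside the 10, Tagln3, Npy and Stmn3 had the highest within-group r with Stmn2 (0.83, 0.79 and 0.77), and Npy, Tagln3 and Tuba1a with Uchl1 (0.79, 0.78 and 0.77). Tubb2b was highest with Tubb3 (0.85) and with Gap43 (0.76). In all, 12 to 19 of 6286 genes reached r = 0.6 with each of Stmn2, Uchl1, Tubb3 and Gap43, against 0 for Nes, Ncam1, Fscn1, Calb2 and Elavl4. Points share the library total, and Nes and Elavl4 rested on at most 40 and 15 counts in a library. Elavl4 was most like Tubb2b over all libraries (Spearman rho 0.65), as was Prph (0.57).

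**Figure D4:**
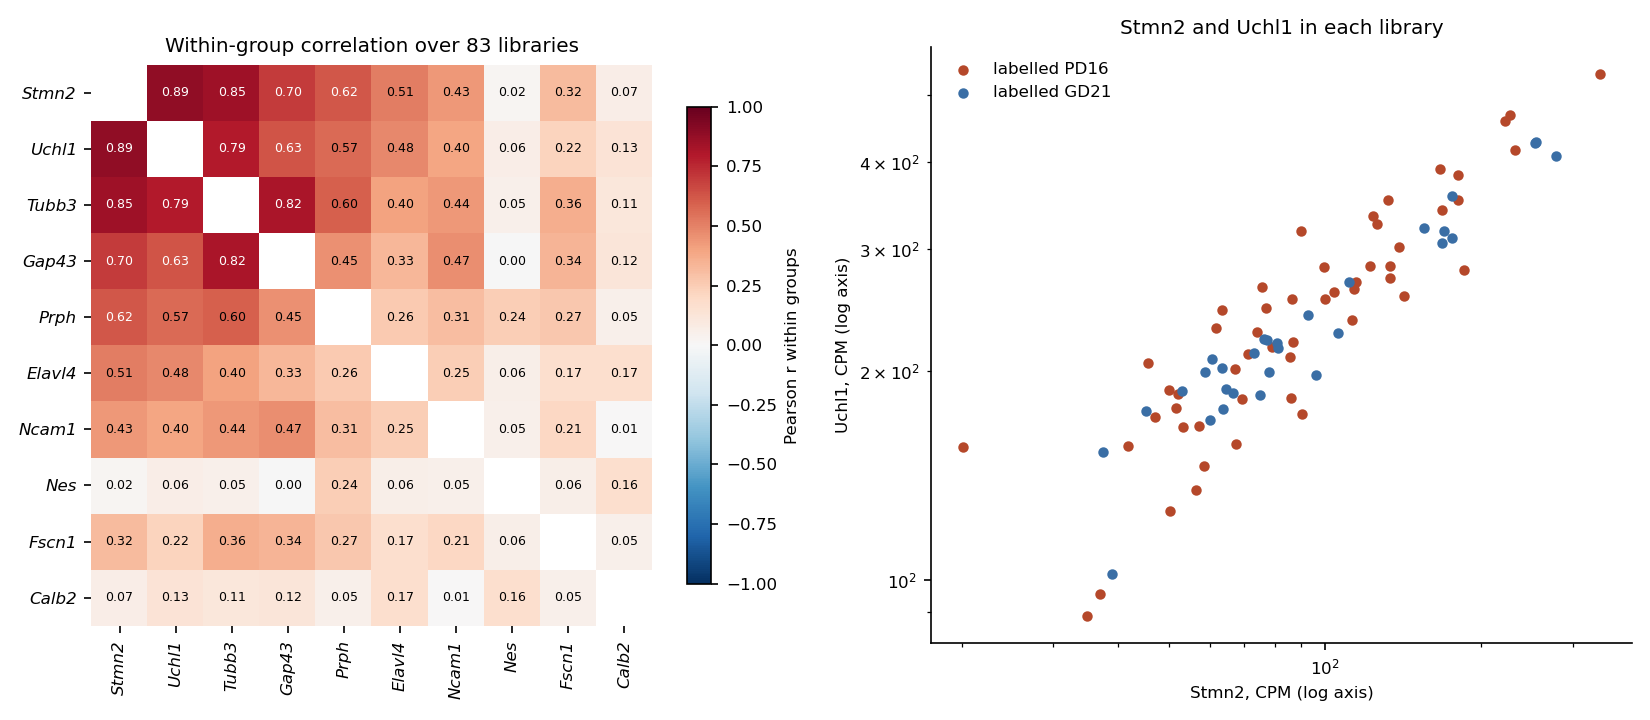
Left, Pearson r of deviations from group means for each pair of the 10 genes over 83 libraries (colour and number); right, Stmn2 against Uchl1 in CPM on log axes, 1 point per library, by labelled stage. Stmn2, Uchl1, Tubb3 and Gap43 form a block with r of 0.63 to 0.89, and Calb2 lies at 0.01 to 0.17 with all others.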

How the data were processed

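Per the labels' protocols, RNA was sequenced as BRB-seq libraries. The submitters' processing notes name the aligner BWA (version 0.7.4.4) and the genome build rn6. The deposited table, per its header and values, holds raw counts by gene symbol for 83 libraries; how reads were counted, and whether by strand, was not given in the sources used here. Group means are CPM, computed from the deposited counts and each library's total. The design text gives PD16 as the end of dosing and the treatment protocol PD22.

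Counts were analysed with edgeR 4.0.16 (R 4.3.3, limma 3.58.1): filterByExpr by group (minimum count 10), TMM scaling, robust quasi-likelihood tests, all groups of a stage in 1 fit (all 10 for stage differences), and Benjamini-Hochberg adjustment over all genes tested, with a threshold of 0.05. This left 4906 genes at PD16, 6236 at GD21 and 6287 in the joint fit. The test was checked on simulated counts. DESeq2 1.42.0 was an alternative.

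The 10 genes, the comparison lists and the tests were chosen with earlier results of these data known. Tests planned on PD16 vehicle or PD16 Ami50 libraries are printed for the 10 genes as values and counts only. All 10 genes are named whatever their result; most alike genes are the 3 with the highest Spearman rho of log2 CPM (prior count 2) among genes of at least 20 CPM; from each list up to 4 called genes with the largest change are named. No genome of build rn6 was used here, and promoter sequences come from RefSeq on GRCr8. Intervals cover the spread between libraries. The splits by library number and the within-group correlations were chosen after seeing the data.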

Additional observations from a re-analysis of the deposited data

Results flagged for a closer look

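Single libraries stood far above the rest of their group for several of the genes. Each gene was examined in each group of up to 10 libraries, 80 sets in all, which leaves out PD16 Ami25 and Ami50. In 22 sets the highest library lay farther from the next than Dixon's limit at 95% allows for the set's range. That limit assumes normally distributed values, and CPM of few counts are skewed. The sets also share libraries between genes that vary together, so the number of flags expected by chance is not known. In GD21 Ami50, library 87 held 428 CPM of Uchl1, 255 CPM of Stmn2, 139 CPM of Gap43, 231 CPM of Tubb3 and 27.7 CPM of Prph. In GD21 MMI8, library 45 held 408, 279, 98.9, 199 and 28.2 CPM of the same genes in the same order. In GD21 vehicle, library 61 held 318 CPM of Uchl1, 170.0 CPM of Stmn2 and 170.0 CPM of Tubb3. In GD21 MMI16, library 47 held 58.2 CPM of Prph. In PD16 MMI16, library 9 held 535 CPM of Uchl1 and 339 CPM of Stmn2, and in PD16 MMI8, library 65 held 227 CPM of Stmn2 and 137 CPM of Tubb3. Libraries 87, 45, 47 and 9 also had albumin at 200 CPM or more, and libraries 61 and 65 did not.

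Calb2 stood out in other libraries, with 341 CPM in PD16 MMI16 library 75, 31.3 CPM in GD21 MMI16 library 72, 30.5 CPM in GD21 Ami50 library 55 and 28.5 CPM in GD21 vehicle library 62.

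The difference of Fscn1 between methimazole and vehicle differed between libraries labelled PD16 and GD21, by -2.17 for MMI8 and -3.06 for MMI16 (log2). The PD16 vehicle and methimazole libraries also carry the embryonic globins, so the labelled stage and that difference cannot be told apart.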

How the results depend on the processing

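Of the 18 counts of genes called, 4 values moved by over 1.5 times under the alternatives. With a covariate for the library number series, the count for MMI16 against vehicle at PD16 was 2 (Fscn1, and Calb2 at -2.82), from which nothing is read since it uses the PD16 vehicle libraries. Fits of only the compared libraries gave 4 for Ami25 against MMI8, of 5 that still passed the filter, and 1 for MMI8 at PD16 against GD21, Gap43 (0.69), of 7. Without libraries with liver transcripts, 4 were called for MMI8 at PD16 against GD21, with Ncam1 (1.09) and Gap43 (1.11) added. Calb2 in Ami25 against MMI8 lost its call with no filter (-2.64, adjusted p = 0.0574), with the number series in the model (-2.20, 0.0674) and without the farthest library of each group (-2.24, 0.0735), and Uchl1 with no filter (-0.55, 0.0844). Tubb3 passed there without libraries with liver transcripts (-0.62, edgeR adjusted p = 0.0432). No called change reversed its direction under these settings. Fscn1 stayed between -3.55 and -2.15 under 12 settings in each of the 2 comparisons of methimazole with vehicle. DESeq2 and its size factors moved none of the 18 counts by over 1.5 times, and shifted the median of all genes by less than 0.1. The cause of these changes was not tested. No paired analysis was possible because the library numbers in the labels are unique to a library and no groups share one. Prph and Elavl4 had too few counts to be tested at PD16.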
